A study of Homo sapiens with 9 samples.

Results

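The control state of A549 cells was described from 3 RNA-seq libraries of the 9 in the series. The 3 were taken by their title, which calls them control, and no other library entered any value. A549 is a long-established epithelial cell line from a human lung adenocarcinoma. The control cells received phosphate-buffered saline (PBS), the vehicle without vesicles, and RNA was taken after 96 h. In the remaining libraries of the study the same line received vesicles from apoptotic cells, and none of those is compared here. All 3 control libraries are of 1 line, and the labels do not say whether they came from separate cultures, so the spread between them may be technical.

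A549 is known to carry loss of function of KEAP1 and STK11 and a deletion of CDKN2A. KEAP1 normally marks the transcription factor NRF2 (gene NFE2L2) for destruction. When KEAP1 fails, NRF2 accumulates and drives genes that make glutathione, reduce quinones and carbonyl compounds, conjugate foreign chemicals and pump the conjugates out of the cell. The normal alveolus, from which such tumours are thought to arise, has type 2 cells that make surfactant and type 1 cells that form the gas exchange surface, and the factor NKX2-1 maintains both. Sequence variants were not examined here, and this paragraph is background only.

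The control libraries held 15492993, 14579211 and 14356195 counts in replicates 1, 2 and 3. Transcripts of the mitochondrial genome took 11.4%, 12.3% and 12.5% of them, and cytosolic ribosomal protein genes 6.74%, 6.2% and 6.19%. Levels are given as the deposited FPKM, fragments scaled by the length of the gene and the total of the library. A gene is called present at an FPKM of at least 1 in every control library, absent at an FPKM under 0.1 in every one, and low otherwise. A count of 0 allows up to 3 counts over the 3 libraries together, an FPKM of up to 0.0675 for a gene of 1 kb. Intervals and limits of this kind cover counting error only. Because FPKM divides by the length of all exons of a gene, a gene with many alternative exons has a lower value than its main transcript alone would have.

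Some genes that nearly all cells use were listed at or near 0, and this limits what an absent call can mean. The tubulin gene TUBB, the translation factor ABCF1, the chromatin subunit SMARCB1 and the respiratory subunit NDUFA6 had 0 counts in all 3 libraries. These genes were chosen after their values were seen. Within the MHC region from HLA-F to HLA-DPB1 (hg38, chr6:29722775-33089696), 107 of 137 protein-coding genes had 0 counts and 1 had a mean FPKM of at least 1. Among the other 902 protein-coding genes of chromosome 6, 170 had 0 counts and 430 had a mean FPKM of at least 1. The deposited tables also hold 511 rows on alternate or patch sequences, 76 of them on MHC haplotypes, and all 511 carry no gene name. Whether reads of the named genes were counted in those rows was not tested. For 7 of the list members called absent (AGER, CYP2D6, TNF, MIF, C4A, CFB and DDR1) such a gene lies within 300 kb. Their absent calls are not read as absence of the transcript. The search covered only a few genes of this kind, all on chromosomes 6 and 22. Absent calls elsewhere, also those with 0 counts, were not checked in this way and are not cleared by it.

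Of 19877 protein-coding genes, 9801 (49.3%) were present, 3976 were low and 6100 (30.7%) were absent. Of the absent genes, 3394 had 0 counts in all 3 libraries. The median protein-coding gene had an FPKM of 1.06, and the median present gene 6.58. Few genes lay far above that level. The mean FPKM reached 100 for 275 nuclear protein-coding genes, 1000 for 15 of them and 10000 for 1.

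FTL, the light chain of the iron store ferritin, was the gene above 10000. FTL (ENSG00000087086, chr19:48965309-48966879, plus strand) had an FPKM of 17085, 15887 and 16489.5 in the 3 libraries. It alone held 6.77% ± 0.121 (SD, n = 3) of the summed FPKM of nuclear genes. The next 2 genes detoxify aldehydes. AKR1B10 (ENSG00000198074, chr7:134527567-134541412, plus strand), an aldo-keto reductase that reduces aldehydes including retinal, had an FPKM of 3549.7, 3560.2 and 3623. ALDH1A1 (ENSG00000165092, chr9:72900671-73080442, minus strand), a dehydrogenase that oxidises retinal to retinoic acid, had an FPKM of 2793, 2839.7 and 2785. The ranges of the 3 libraries did not meet between any neighbours among the first 7 ranks.

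The other 4 of those ranks were 3 calcium- or actin-binding proteins and 1 glycolytic enzyme. TMSB10, an actin-sequestering thymosin, had an FPKM of 2779, 2325 and 2261, and replicate 1 stood above the other two. S100A6, a calcium-binding protein, had an FPKM of 2189.8, 1917 and 1984. The glycolytic enzyme GAPDH followed at 1644, 1615 and 1601, and S100A4, a calcium-binding protein of motile cells, at 1490.2, 1361 and 1474. From rank 8 on, each gene's range met that of its neighbour, so their order is not settled by these libraries. These genes were KRT18, RPS12, EEF1A1, KRT81, TMSB4X, NQO1, RPL13A and GPX2, with mean FPKM from 1301 down to 1003.

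**Figure D1:**
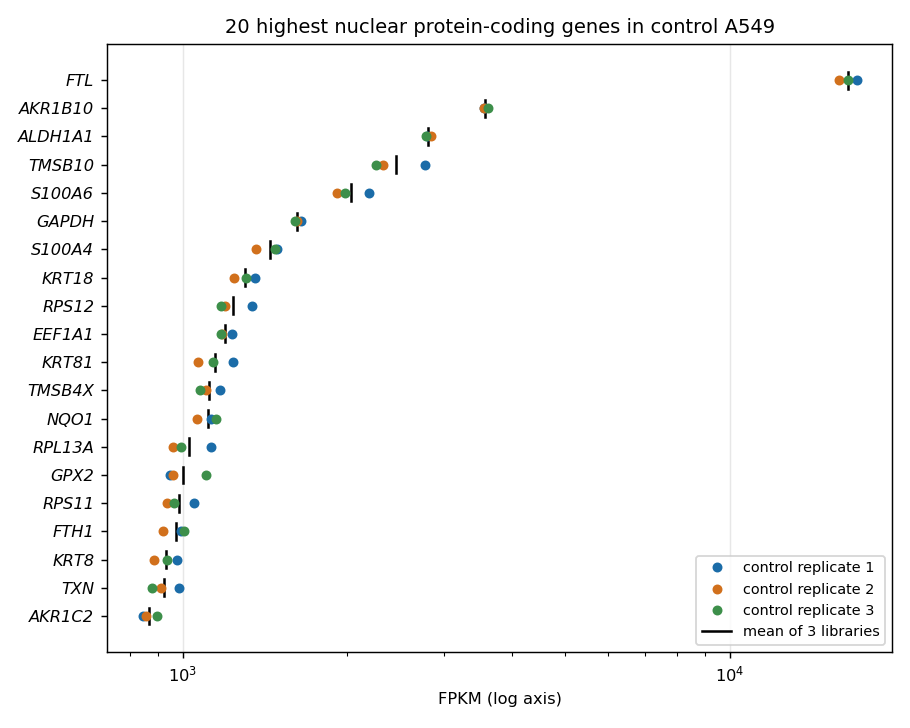
FPKM (log axis) of the 20 highest nuclear protein-coding genes in control A549, with 1 point for each of the 3 libraries and a bar at their mean. FTL stands apart at 15887 to 17085, AKR1B10 and ALDH1A1 follow with little spread, and from KRT18 down the neighbouring ranges meet.

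The ranking depends on the length scaling. CPM scales counts to the library total adjusted by its TMM normalization factor, without regard to length. By CPM, EEF1A1, the elongation factor that brings tRNA to the ribosome, was second and TMSB10 was 66th. Among the 100 highest nuclear protein-coding genes, 36 encode cytosolic ribosomal proteins, 16 are members of the detoxification list, 4 are keratins, 4 are S100 genes and 1 is on the list of secreted products. The 20 highest genes held 18.2% ± 0.265 (SD, n = 3) of the summed FPKM of nuclear genes, and 379 genes held 50%. Among rows that do not code for protein the highest by FPKM were MT-RNR2, MT-TC, MT-TN, MT-RNR1 and RN7SL1. The mitochondrial ribosomal RNAs were MT-RNR2 (13838.5, 13787 and 13355.5) and MT-RNR1 (2125, 1901 and 1879). RN7SL1, an RNA of the signal recognition particle, had 1329, 1159 and 1437. The mitochondrial tRNAs MT-TC and MT-TN are 66 and 73 bases long, so their rank rests on the length scaling. They had 2338 to 2911 and 2001 to 2720 counts per library, against 26221 to 31451 for MT-RNR1.

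Several of these levels are uncertain because the genes share sequence with copies. Over windows of 50 bases, 18.3% of FTL transcript sequence also occurs in the pseudogene FTLP3, and 17.4% of AKR1B10 occurs in other genes, mostly AKR1B15. Among the aldo-keto reductases 1C, AKR1C2 shares 48.1% of its windows, AKR1C1 27.0% and AKR1C3 9.55%. KRT81 shares 43.7% and KRT86 37.5%, mostly with each other. ALDH1A1, GPX2, S100A6 and GSTP1 share no window with another gene.

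The lineage of the line was read from 33 transcription factors of lung, gut, liver and epithelium and from markers of 11 cell types. Of the 33 factors, 16 were present (48.5%, against 49.3% of all protein-coding genes), 10 were low and 7 absent. The lung lineage factor NKX2-1 (ENSG00000136352, chr14:36516392-36521149, minus strand) was absent, with 0, 0 and 3 counts. The foregut pioneer factors FOXA2 (FPKM 7.85, 6.01 and 8.17) and FOXA1 (5.84, 7.88 and 6.5) were present. Both varied between the libraries beyond counting error. FOXA1 was highest and FOXA2 lowest in replicate 2, and the ranges of the pair overlapped. GATA6, a factor of foregut endoderm, was low at 0.865, 0.520 and 0.576, and SOX2, a factor of proximal airway, at 0.975, 0.406 and 0.381. SOX2 was highest in replicate 1, where it had 38 counts against 15 and 14.

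Factors of liver and gut were present at low levels. HNF4A, a master regulator of hepatocyte and enterocyte genes, had an FPKM of 1.46, 1.37 and 1.4, HNF4G 1.94, 1.93 and 1.95, and NR5A2, a nuclear receptor of liver and pancreas, 1.88, 2.40 and 2.47. The intestinal factors CDX2 and CDX1 were absent, CDX1 with 0 counts. Thus 4 of 12 factors of liver and gut met the threshold, and the levels of those 4 were all under an FPKM of 2.5.

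Of 11 epithelial factors 5 were present, 3 low and 3 absent. ELF3, an ETS factor of epithelia, was at 28.4, 28.7 and 32.2, SPDEF, a factor of goblet cells, at 17.3, 16.4 and 17.5, KLF5 at 12.5, 13.5 and 15, and EHF at 9.74, 10.0 and 9.95. No neighbours among these 4 overlapped. GRHL2, which maintains epithelial junction genes, had 0, 1 and 0 counts, ESRP1, a splicing factor of epithelia, 1, 0 and 1, and OVOL1, which restrains mesenchymal genes, 0 in every library. The squamous factor TP63 was low at 0.336, 0.282 and 0.494.

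Of 12 markers of alveolar type 2 cells, 1 was present, while 2 reached an FPKM of 0.5 and 4 had at least 10 counts in every library. ABCA3, the lipid transporter of lamellar bodies, had an FPKM of 3.27, 3.04 and 3.35. The surfactant proteins were near 0: SFTPC had 0, 1 and 0 counts, SFTPA1 had 0 in every library, and SFTPB lay at 0.220, 0.0828 and 0.0832. NAPSA, the protease that processes surfactant protein B and a diagnostic marker of lung adenocarcinoma, was low at 0.378, 0.247 and 0.458. The label calls the line lung adenocarcinoma, and NKX2-1, SFTPA1, SFTPB, SFTPC and NAPSA, which define that lineage, were all absent or low.

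Of 8 markers of alveolar type 1 cells, 3 were present. CAV1, the coat protein of caveolae, had an FPKM of 64.8, 70.7 and 59.9, EMP2 7.43, 7.4 and 8.0, and RTKN2 1.22, 1.33 and 1.21. PDPN and HOPX, which define the cell type, had 0 counts, AQP5 was absent, and AGER lies beside genes listed at 0. CAV1 is also made by many other cells, so these levels name no cell type.

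Markers of airway and neuroendocrine cells were mostly low or absent. No marker of 6 for club and secretory cells was present, although 1 was without replicate 1 and 2 were at an FPKM of at least 0.5 or with at least 10 counts in every library, and the uteroglobin SCGB1A1 lay at 0.110, 0 and 0. Of 8 ciliated cell markers 2 were present, CCDC78 (3.22, 2.13 and 2.57) and TPPP3 (2.48, 2.04 and 2.65), while the ciliary master factor FOXJ1 was absent. Of 8 basal and squamous markers KRT15 was present (1.57, 1.73 and 1.35), and the defining keratins KRT5 and KRT14 had 1, 0 and 0 and 0, 0 and 0 counts. Of 9 neuroendocrine markers CHGB, a granin of secretory granules, was present at 1.62, 1.88 and 2.98, highest in replicate 3, and NEUROD1, a factor of that lineage, had 0 counts. In RNA of a whole culture, few cells with much of a transcript and many cells with little of it cannot be told apart.

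Hepatocyte markers formed a split list, with 6 present, 5 low and 7 absent of 18. The present members were blood plasma proteins: APOH, a phospholipid-binding protein (18.4, 18.3 and 20.7), the fibrinogen chains FGA (12.1, 13.4 and 16.3), FGG (2.22, 2.00 and 2.49) and FGB (1.37, 1.85 and 1.88), the copper carrier CP (10.3, 12.3 and 12.7) and FGL1 (11.2, 11.3 and 11.7). FGA and CP varied between the libraries beyond counting error, and in both replicate 1 was lowest and replicate 3 highest. For CP replicates 2 and 3 were close. The defining plasma proteins of hepatocytes did not accompany them: ALB had 6, 1 and 3 counts, APOA1 1, 0 and 3, and TTR 1, 3 and 2.

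Markers of cells that could be mixed into a culture gave little signal. The summed FPKM of 8 leukocyte markers lay between 5.42 and 7.82, nearly all of it CD14, a receptor of bacterial lipopolysaccharide (5.01, 4.88 and 6.81). PTPRC, the pan-leukocyte antigen CD45, had 0 counts. The sums were 0.298 to 0.383 for 6 endothelial, 0.353 to 0.466 for 7 fibroblast and 0.0333 to 0.127 for 5 erythroid markers, with no member present. These sums are over all markers of each list.

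**Figure D2:**
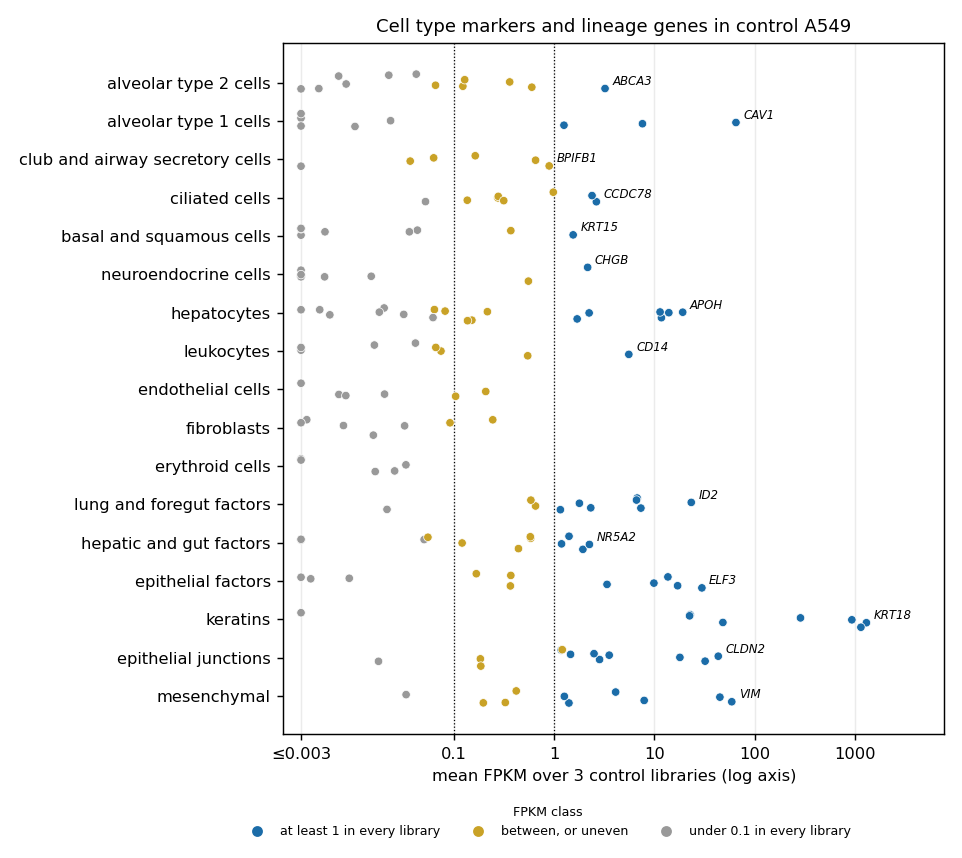
Mean FPKM over the 3 control libraries (log axis, values at or below 0.003 drawn at the left edge) of each marker of 11 cell types and of lineage and structure genes, 1 point per gene, coloured by class, with dotted lines at the class limits of 0.1 and 1. Keratins reach over 1000, 1 of 12 type 2 markers and 6 of 18 hepatocyte markers lie right of the line at 1, and no endothelial, fibroblast or erythroid marker does.

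Keratins of simple epithelia and mesenchymal genes were both present, and 21 of 30 genes of epithelial and mesenchymal structure met the threshold. KRT18 and KRT8, the keratin pair of simple epithelia, had an FPKM of 1357, 1239 and 1307 and of 974, 885 and 936. KRT81, a hair keratin, reached 1235, 1068 and 1137, KRT7, a keratin of lung and duct epithelium, 309.6, 278 and 272, and KRT19 51.2, 42.1 and 51.4. KRT20, a keratin of gut, had 0 counts.

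All 12 junction genes lay below KRT18, KRT81, KRT8 and KRT7 in every library, and the range of the highest, CLDN2, overlapped that of KRT19. The adhesion molecule CDH1 (E-cadherin) had an FPKM of 2.62, 2.68 and 3.23 and EPCAM 1.43, 1.51 and 1.43. The claudin of leaky epithelia CLDN2 was the highest junction gene at 41.3, 39.3 and 49.5, then the plaque protein JUP at 30.6, 27.3 and 38.3, then CLDN1 at 17.9, 17.9 and 18.1 and the desmosomal linker DSP at 3.47, 3.45 and 3.73. CLDN18, the claudin of alveolar and gastric epithelium, was low at 0.278, 0.183 and 0.0920. The mesenchymal filament gene VIM was present at 60.7, 55.1 and 61.6, the matrix protein TGFBI at 45.0, 44.0 and 46.0, the repressor of epithelial genes ZEB1 at 4.17, 4.14 and 4.02, and CDH2 (N-cadherin) at 1.46, 1.51 and 1.25. The ranges of VIM and CDH1 lay far apart, and those of CDH2 and EPCAM overlapped.

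Most detoxification genes were present. Of 107 members found in the tables, 79 were present (73.8%, against 49.3% of all protein-coding genes), 11 were low and 17 absent. Their median FPKM was 13.7, against 1.06 over all protein-coding genes. Together they held 14.0% ± 0.249 (SD, n = 3) of the summed FPKM of nuclear genes, and 6.83% ± 0.176 without the ferritin chains FTL and FTH1. The list was chosen with the abundance of several of its members known, so these values describe it and support nothing further.

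The regulators of the pathway were at moderate levels. NFE2L2, the gene of NRF2, had an FPKM of 20.8, 20.9 and 20.6, its small MAF partner MAFG 19.1, 20.4 and 19.3, MAFK 18.9, 17.8 and 15.1, and its inhibitor KEAP1 14.5, 12.3 and 14.3. SQSTM1, a cargo receptor that can sequester KEAP1, lay at 40.5, 22.9 and 21.7. Replicate 1 was thus far above the other two, and SQSTM1 was the member of this role with the widest spread.

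Glutathione and thioredoxin genes were present in 19 of 19 cases. GPX2, a glutathione peroxidase of epithelia, had an FPKM of 948, 959 and 1101, and replicate 3 was above the other two. Thioredoxin TXN was at 983, 913 and 878, the peroxiredoxin PRDX1 at 675, 682 and 633, and PGD, which makes NADPH in the pentose phosphate pathway, at 387, 385 and 428. TXNRD1, which reduces thioredoxin, lay at 380.4, 395 and 372, GCLM, a subunit of the rate-limiting enzyme of glutathione synthesis, at 49.5, 52.4 and 51.8, and the cystine transporter SLC7A11 at 46.0, 54.3 and 49.3. Of the 19, 15 varied between libraries beyond counting error, against 28.9% of all rows tested, 57.5% of rows with a mean count of 1000 to 10000 and 95.4% of rows above that.

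NRF2 is known to bind antioxidant response elements, and the shortest form of that element searched here is TGACNNNGC, on either strand. It occurred in 4663 of 34943 RefSeq promoter windows of 300 bases (13.3%) and in 19 of the 82 detoxification members with a window (23.2%). By role, it occurred in 6 of 14 glutathione and thioredoxin genes (42.9%) and in 1 of 17 oxidoreductases, a role that includes FTL (5.88%). Another form, TGA and GCA with any 4 bases between them, gave a different order, with 12.5% of all windows, 2 of 14 glutathione and thioredoxin genes (14.3%) and 6 of 17 oxidoreductases (35.3%). In all 7 patterns were searched. The form printed here and the genes shown were chosen after their matches were seen, so the shares carry no weight as evidence. The windows of TXNRD1, GPX2, GCLM and PGD are shown because these genes hold the first form and serve the pathway, and capitals mark the matches. They come from RefSeq on GRCh38.p14 and read 5′ to 3′ along the gene, at chr12:104215529-104215828 (plus strand), chr14:64942696-64942995 (minus strand), chr1:93909381-93909680 (minus strand) and chr1:10398814-10399113 (plus strand).
TXNRD1: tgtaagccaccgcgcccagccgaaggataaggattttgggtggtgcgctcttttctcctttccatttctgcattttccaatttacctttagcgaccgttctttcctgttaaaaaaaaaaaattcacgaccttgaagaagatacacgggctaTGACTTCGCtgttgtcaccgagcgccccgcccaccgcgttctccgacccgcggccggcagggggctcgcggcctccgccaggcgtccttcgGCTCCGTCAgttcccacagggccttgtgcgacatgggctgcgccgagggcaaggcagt
GPX2: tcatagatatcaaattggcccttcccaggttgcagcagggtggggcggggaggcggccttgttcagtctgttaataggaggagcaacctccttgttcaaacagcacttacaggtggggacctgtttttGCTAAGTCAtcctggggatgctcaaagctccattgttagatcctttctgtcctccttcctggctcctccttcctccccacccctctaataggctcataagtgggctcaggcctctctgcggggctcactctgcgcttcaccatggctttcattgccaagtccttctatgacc
GCLM: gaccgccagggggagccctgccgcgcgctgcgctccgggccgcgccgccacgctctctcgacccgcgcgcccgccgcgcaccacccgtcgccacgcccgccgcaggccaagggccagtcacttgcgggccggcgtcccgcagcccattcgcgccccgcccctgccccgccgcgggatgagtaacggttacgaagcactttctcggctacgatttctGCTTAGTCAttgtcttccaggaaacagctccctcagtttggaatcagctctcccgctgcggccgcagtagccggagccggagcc
PGD: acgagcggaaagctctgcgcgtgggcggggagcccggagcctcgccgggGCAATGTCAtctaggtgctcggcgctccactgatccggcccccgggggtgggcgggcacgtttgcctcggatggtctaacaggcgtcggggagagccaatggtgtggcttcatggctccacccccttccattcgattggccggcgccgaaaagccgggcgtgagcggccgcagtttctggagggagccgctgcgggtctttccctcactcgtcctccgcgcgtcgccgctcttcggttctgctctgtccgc

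A match describes letters in a window and does not show binding. The windows of NQO1, ALDH1A1 and AKR1C1 hold the second form and not the first, and the window of FTL holds neither. Sequence outside the windows of 300 bases was not searched, so these genes may have matches elsewhere. TXNRD1 is the only one of the 4 shown with a pair of matches, at 99 and 8 bases before the start site, and the match of GPX2 begins 122 bases before it. The table of promoters had no window for AKR1B10.

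The role named oxidoreductases, which also holds the ferritin chains FTL and FTH1, had the highest levels of the list, with 23 of 24 present. FTL is an iron store chain and not such an enzyme, and the highest enzyme of the role was AKR1B10. Beside FTL, AKR1B10 and ALDH1A1, the quinone reductase NQO1 had an FPKM of 1128, 1063 and 1148. The steroid and carbonyl reductases AKR1C2 (845, 858 and 899) and AKR1C3 (901, 829 and 872) overlapped in range, and AKR1C1 was lower at 201, 209 and 222. ALDH3A1, an aldehyde dehydrogenase of cornea and airway, lay at 269, 228 and 339 and was highest in replicate 3. HMOX1, the haem oxygenase, was far lower at 38.7, 37.0 and 40.6, and was named after its values were seen.

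The phase I role, cytochromes with EPHX1 and the electron donor POR, was divided, with 8 present and 10 absent of 19. CYP24A1, which inactivates vitamin D, had an FPKM of 115, 123 and 136, the epoxide hydrolase EPHX1 65.9, 60.2 and 74.5, CYP4F11, a fatty acid and vitamin K hydroxylase, 23.1, 24.9 and 24.1, and CYP2S1 15.3, 14.8 and 19.2. CYP3A5, which metabolises drugs, was present at 2.89, 3.83 and 3.44, as an example chosen after its values were seen. Other drug-metabolising cytochromes were absent, CYP3A4 with 5, 4 and 2 counts, CYP1A1 with 0, 1 and 1, and CYP2B6 and CYP2C8 with 0. CYP2D6 was listed at 0 beside genes that are themselves listed at 0. VDR, the vitamin D receptor that activates CYP24A1, was low at 0.193, 0.216 and 0.193.

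Conjugation and efflux genes were uneven too. The glutathione transferase GSTP1 had an FPKM of 526, 470.3 and 504, GSTO1 107, 91.3 and 93.9, and the microsomal transferase MGST1 90.0, 88.7 and 87.4. GSTM1 had 0 counts, and UGT1A6, a glucuronosyltransferase, was low at 0.4, 0.449 and 0.424. Sequence that UGT1A6 may share with other genes was not searched, so its low call is uncertain. Of the 20 conjugation genes found, 10 were present. Of 8 efflux pumps 7 were present, led by ABCC2, a pump for glutathione conjugates, at 103, 115 and 110, ABCC3 at 39.4, 40.6 and 44.4, and the multidrug pump ABCG2 at 31.5, 30.8 and 32.7. The classical multidrug pump ABCB1 was low at 0.723, 0.668 and 0.415. Of the sensors, the aryl hydrocarbon receptor AHR was present at 7.30, 7.69 and 7.50, and the pregnane receptor NR1I2 was absent.

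**Figure D3:**
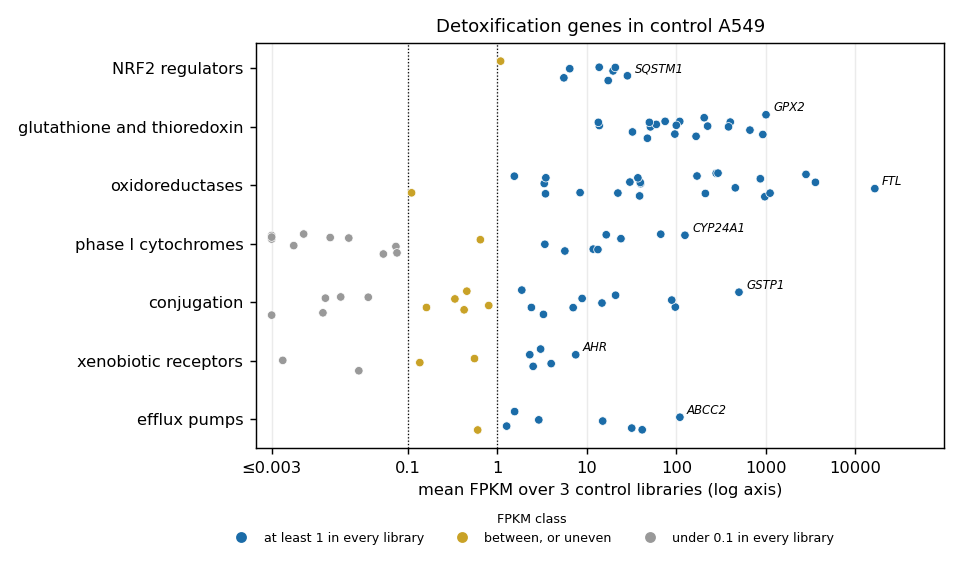
Mean FPKM over the 3 control libraries (log axis, values at or below 0.003 drawn at the left edge) of detoxification genes by role, 1 point per gene, coloured by class, with dotted lines at 0.1 and 1. All 19 glutathione and thioredoxin genes lie right of 1, and 10 of 19 phase I genes lie left of 0.1. The role named oxidoreductases includes the ferritin chains and reaches over 10000 only with FTL.

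Secreted products were present in 74 of 140 cases (52.9%, close to the 49.3% of all protein-coding genes), with 32 low and 34 absent. Among mucins and goblet cell products AGR2, an endoplasmic reticulum protein of mucus cells, had an FPKM of 238, 234 and 249. The mucins MUC13 (11, 13.6 and 13) and MUC5B (10.7, 12.4 and 14.0) and the trefoil peptide TFF1 (8.91, 8.85 and 8.34) were present. MUC13 and MUC5B overlapped in range, and TFF1 lay below both. MUC5AC was absent, MUC1 was low at 0.806, 0.907 and 1.39, and MUC2, MUC4, MUC20 and TFF2 had 0 counts.

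The chemokines were led by ligands of the neutrophil receptor CXCR2. CXCL5 had an FPKM of 212, 225 and 258, CXCL1 39.8, 44.1 and 65.3, and CXCL8 (interleukin 8) 33.1, 35.0 and 48.2. Replicate 3 was the highest for 7 of the 8 members of this role that varied beyond counting error, and for 1251 of the 4605 rows that varied in all. The cytokine LIF lay at 41.8, 42.6 and 37.2 and IL18 at 37.1, 36.8 and 35.4. IL6 was low with 1, 5 and 7 counts, IL1B was low at 0.236, 0.0905 and 0.136, and CXCL10, CXCL12, CCL5 and TSLP had 0 counts.

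Of 29 growth factors and inhibitors 23 were present. The highest were IGFBP4, which binds insulin-like growth factors (356, 301 and 368), the WNT inhibitor DKK1 (226, 219.99 and 259.7), the stress cytokine GDF15 (73.3, 61.1 and 74.4) and IGFBP3 (61.3, 65.9 and 63.0). The angiogenic factor VEGFA was present at 2.15, 1.94 and 1.74, on a gene of 14431 bases of exons. Activin subunit INHBA had 0 counts.

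Host defence and protease genes gave mixed calls. The antiprotease SLPI had an FPKM of 48.9, 43.4 and 52.3, the iron-trapping lipocalin LCN2 32.9, 32.7 and 39.1, the vitamin B12 carrier TCN1 5.54, 5.49 and 7.88, and complement C3 1.54, 1.11 and 1.74, while LTF, S100A8, S100A9 and BPI had 0 counts. Among proteases the cathepsin CTSL was at 206, 192 and 209.8, the matrilysin MMP7 at 119, 116 and 127, the inhibitor TIMP1 at 66.5, 65.2 and 72.6, SPINT2 at 68.7, 61.6 and 64.6, and the plasminogen activator PLAU at 20.7, 16.7 and 18.9. MMP2 was low and MMP1 had 0 counts. Replicate 2 was the lowest for all 11 protease and inhibitor genes that varied beyond counting error, and for 1517 of the 4605 rows that varied in all.

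Laminins, the trimers of basement membranes, were among the present matrix genes. Of 16 matrix genes, 11 were present and 0 were absent. The proteoglycan SDC1 had an FPKM of 40.9, 34.3 and 37.1, and the laminin chains LAMA5, LAMB1 and LAMC1 had 28.4, 32.0 and 28.6, then 15.3, 15.5 and 16.0, then 12.7, 12.8 and 12.2. The collagen gene COL4A1 was low at 0.501, 0.432 and 0.392. Among peptides the vasodilator ADM lay at 26.8, 22.5 and 20.5 and neurotensin NTS at 6.76, 7.84 and 8.62.

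Signalling genes were present in 121 of 184 cases (65.8%, against 49.3% of all protein-coding genes), with 31 low and 32 absent, at a median FPKM of 2.81. Of 30 receptor tyrosine kinases 10 were present (33.3%), a smaller share than among all protein-coding genes. MET, the receptor of hepatocyte growth factor, had an FPKM of 34.8, 37.8 and 34.9, EPHA2 25.8, 23.4 and 24.6, AXL 17.4, 14.9 and 13.8, FGFR4 9.98, 8.62 and 9.42, EGFR 6.62, 7.41 and 6.88 and ERBB2 3.02, 2.62 and 3.36. Among the first 4 no ranges overlapped between neighbours. The fusion targets of lung cancer were low or absent, ALK at 0.157, 0.0738 and 0.0741, RET at 0.0790, 0.0228 and 0.0381 and ROS1 at 0.0145, 0.0459 and 0.0461.

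Of 24 genes of the RAS and ERK cascade 22 were present. The GTPase gene NRAS had an FPKM of 29.2, 29.3 and 25.9. The phosphatases that switch ERK off led the role, DUSP5 at 41.9, 44.3 and 46.9 and DUSP4 at 35.2, 34.9 and 36.9. Other transcripts known as ERK outputs were lower, with ETV4 at 11.4, 10.1 and 15.1, DUSP6 at 3.16, 3.23 and 4.64 and ETV5 at 2.99, 2.79 and 3.08. ETV4 and DUSP6 varied between the libraries beyond counting error, and replicate 3 was the highest for both.

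In the LKB1 and mTOR role 17 of 19 genes were present. STK11, the gene of LKB1, had an FPKM of 5.0, 4.48 and 4.62, its scaffold CAB39 14.3, 14.5 and 12.6, and its substrate PRKAA1, a catalytic chain of the energy sensor AMPK, 16.5, 19.0 and 17.8.

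Among tumour suppressors and cell cycle genes 14 of 21 were present. CDKN2A (ENSG00000147889, chr9:21967752-21995301) and its neighbour CDKN2B (chr9:22002903-22009305), inhibitors of CDK4 and CDK6, had 0 counts in every library, which allows an FPKM of up to 0.0174 and 0.0169. MTAP, a metabolic gene beside them that was named after its values were seen, was absent with 8, 10 and 12 counts. CDK4 lay at 36.6, 37.5 and 33.9, cyclins CCND1 at 34.1, 31.6 and 30.2 and CCND3 at 34.9, 29.3 and 29.8, and the CDK inhibitor CDKN1A at 22, 20.9 and 22. RB1 was present at 7.25, 8.29 and 7.86 and MYC at 14, 12 and 13. The chromatin remodeller SMARCA4 sat at the threshold and was low at 1.04, 0.932 and 0.998.

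Of 30 genes of WNT, NOTCH, Hedgehog and TGF-beta signalling 22 were present. ID1, a target of BMP signals, had an FPKM of 76.4, 69.4 and 91.6, the R-spondin receptor LGR4 39.7, 43.7 and 41.1, TGFBR2 28.7, 30.5 and 30.7, the WNT effector CTNNB1 24.7, 25.2 and 25 and YAP1 9.31, 9.94 and 9.59. The WNT target AXIN2 was present at 1.76, 1.69 and 1.88, and the Hedgehog target GLI1 at 2.22, 2.24 and 2.37. LGR5 was absent, and the NOTCH ligand DLL1 had 0 counts.

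Nuclear and cytokine receptors were also mostly present. NR0B1, a repressor of steroidogenic factors and a gene known to be raised in KEAP1-mutant lung cancer, had an FPKM of 22.6, 23 and 18.6 and the glucocorticoid receptor NR3C1 14.6, 18.1 and 15.1, while ESR1 was absent. The tumour necrosis factor receptor TNFRSF1A was at 40.7, 38.3 and 43.5, the shared chain IL6ST at 21.2, 26.4 and 21.8 and CXCR4 at 3.35, 4.29 and 3.46. STING1, an adaptor of DNA sensing, had 0 counts in all 3 libraries.

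Surface receptors ended the list with 7 of 18 present. The adhesion molecule CEACAM6 had an FPKM of 267, 287 and 299 and CEACAM5 was low at 0.760, 1.01 and 1.11. The basal immunoglobulin BSG lay at 54.2, 42.5 and 53.9. The membrane serine protease TMPRSS2 was absent, with 1, 0 and 0 counts. The checkpoint ligand CD274 was low at 0.0942, 0.331 and 0.183.

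**Figure D4:**
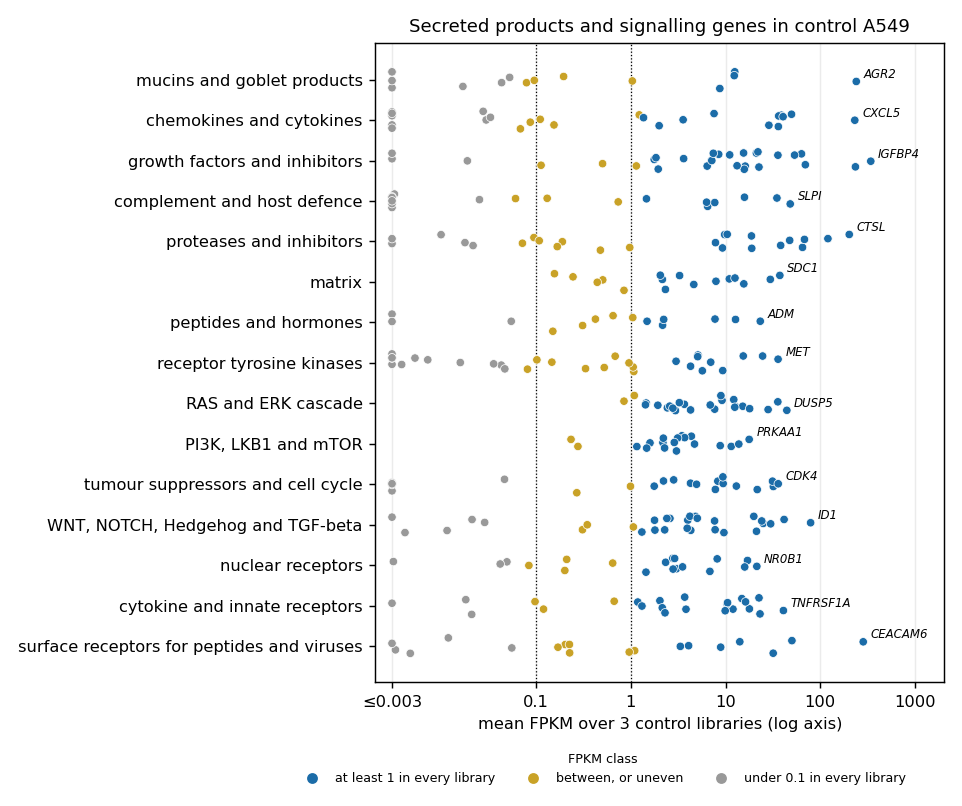
Mean FPKM over the 3 control libraries (log axis, values at or below 0.003 drawn at the left edge) of secreted products and signalling genes by role, 1 point per gene, coloured by class, with dotted lines at 0.1 and 1. Most members of the RAS and ERK cascade lie between 1 and 50, AGR2, CXCL5, DKK1, IGFBP4, CTSL and CEACAM6 reach about 200 or more, and receptor tyrosine kinases spread from 0 to MET at about 36.

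The spread between the 3 libraries was tested gene by gene against counting error. A chi-square test of the 3 counts against TMM-scaled totals (2 degrees of freedom, Benjamini-Hochberg over 15958 gene rows with a mean count of at least 10) called 4605 rows (28.9%) at an adjusted p under 0.05. It compares these 3 libraries together and not conditions, and it does not say which library differs. Calls followed depth, with 15.4% of rows with a mean count of 10 to 100, 27.3% up to 1000, 57.5% up to 10000 and 95.4% above. The size was small in most cases, with a median highest-to-lowest log2 ratio of 0.32 among called rows. The biological coefficient of variation, the spread beyond counting error estimated by edgeR over 14802 rows, was 0.0860.

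Among list members with enough counts 187 of 413 varied (45.3%), which is read beside the depth bins since these genes are abundant. FTL, AKR1B10, ALDH1A1 and all 7 keratins tested were called. The coefficient of variation of FPKM was 3.63% for FTL, 1.11% for AKR1B10 and 1.05% for ALDH1A1, so at these depths the call comes with small differences. Keratins were highest in replicate 1 in 6 of 7 cases, and 1645 of all 4605 rows that varied were highest there.

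Most ribosomal protein genes varied, with the same library highest. Of 76 tested, 68 varied, against 57.5% of rows with a mean count of 1000 to 10000 and 95.4% above that. Replicate 1 was the highest in 62 of those 68, against 1645 of all 4605 rows that varied, at a median coefficient of variation of 6.93%. Replicate 1 also had the largest total. Rows highest in replicate 1 had a median exon length of 3688 bases, those highest in replicate 2 of 7311 and those highest in replicate 3 of 4693, and the part of length in these patterns was not tested.

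The widest rows were mostly on alternate or patch sequences, which have no gene name in the tables. Of the 10 widest called rows with a mean count of at least 100, 8 were of that kind, and of the 25 widest 15 were. The 2 named genes among the 10 were DCAF11, a substrate receptor of a ubiquitin ligase, with 19, 185 and 215 counts, and GGNBP2, a zinc finger protein, with 290, 72 and 39. Their log2 ratios of highest to lowest library were 3.59 and 2.81. Of the rows on alternate or patch sequences 169 of 326 tested varied (51.8%), against 28.4% of the others. Whether reads of these genes moved between named and alternate rows in single libraries was not tested, so their spread is not read as a difference in expression.

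At the other end 5 genes agreed most closely between libraries among those with a mean FPKM of at least 10. They were GOLM1, a Golgi membrane protein, SHTN1, the glycolytic enzyme PGK1, NUTF2, a nuclear import factor, and the hyaluronan receptor CD44. GOLM1 had a CPM of 213.1, 212.8 and 212.9, and PGK1 1152.6, 1149 and 1152. All 5 stayed within 0.00501 on the log2 scale from lowest to highest, and they were taken as the extreme of all genes at that level.

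**Figure D5:**
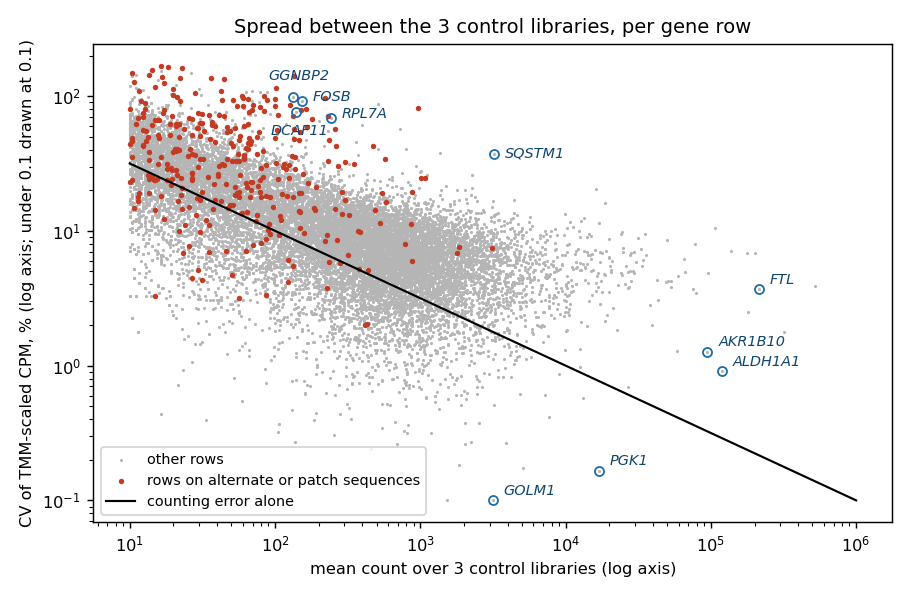
Coefficient of variation between the 3 control libraries (%, log axis) against mean count (log axis) for 15958 gene rows with a mean count of at least 10, with the line that counting error alone gives and rows on alternate or patch sequences in red. FTL, AKR1B10 and ALDH1A1 lie above the line at high counts, PGK1 and GOLM1 below it, and red rows are frequent at the top left beside DCAF11 and GGNBP2.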

How the data were processed

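Per the labels' protocols, TRIzol was used for extraction and a NEBNext Ultra kit for the libraries. The authors deposited whole-number counts per gene, not normalized, and FPKM values for the same 62257 gene rows, of which 61399 matched a gene symbol. The submitters' processing notes name limma, featureCounts 1.5.0-p3, the Subread package, StringTie 1.3.3b, HISAT2 2.0.5 and the build hg38, and their roles and order are not given in the sources used here. Rows without annotation (705) held 0.328% to 0.341% of the counts. GENCODE v29 supplied the gene types, and the authors may have used another release.

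Only the 3 control columns were read, and no groups were compared. Levels are the deposited FPKM, with mean and SD over 3 libraries. Spread was tested by chi-square on counts, with TMM factors and the coefficient of variation from edgeR 4.0.16 (R 4.3.3), and DESeq2 1.42.0 size factors as an alternative. The chi-square test was also run on simulated counts of 16013 genes with counting error only (Poisson). It found 78 of the 100 genes given a 2-fold change and 57 of the 100 given a 1.5-fold change. Of its 142 calls, 7 (4.93%) were false. The real libraries spread beyond counting error, which this simulation leaves out.

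The members and gene lists (583 symbols, 582 matched) were chosen with earlier results of these data known. Genes were named by rule: the 15 highest nuclear protein-coding genes, the 5 highest of other types, the 4 highest, the defining and the 0-count members of each role, and the 10 widest and 5 steadiest rows. Other named members are examples chosen after their values were seen. Some genes that the rule took are withheld and not reported here.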

Additional observations from a re-analysis of the deposited data

How the results depend on the processing

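No paired analysis was possible because only 1 group was described and no groups were compared. With other presence thresholds or any 1 library left out, the counts of protein-coding genes and list members present stayed within 1.5 times the reported ones. Of 112 recomputed counts for single lists, 18 moved by over 1.5 times. These were the counts of the lineage transcription factors and of alveolar type 2, club, ciliated, basal, neuroendocrine, leukocyte, endothelial and fibroblast markers, where at least 10 counts in every library admitted 1 endothelial and 1 fibroblast marker. Without TPM, 2 of 1036 recomputed levels of named genes moved by at least the SD between libraries. Most of the 1036 left 1 library out, which cannot move a mean by as much as that SD. The rest took TMM-scaled counts per kilobase, nearly the same scale as the deposited FPKM. The small number is therefore no evidence that the levels are stable. Rescaling to TPM multiplies FPKM by 2.74 to 2.76. The share held by the 20 highest genes was 11.2% of counts in place of FPKM and 19.5% without ribosomal protein genes. The rows that varied numbered 2352 to 2893 with 1 library left out, a test of 2 libraries that has less power, and an unadjusted p under 0.05 was reached by 6400 rows. The biological coefficient of variation was 0.0918 without a filter on low counts and 0.0806 to 0.0885 with 1 library left out. Levels under a few counts are limited by depth.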

Other observations

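Transcripts outside the lists were read in the same libraries and chosen after their values were seen. Among long non-coding RNAs the nuclear speckle RNA MALAT1 had an FPKM of 78.3, 75.2 and 87.2 in replicates 1, 2 and 3, NORAD, which binds Pumilio proteins, 59.8, 61.9 and 58.6, and the paraspeckle scaffold NEAT1 40.4, 43.1 and 48.2. NEAT1 was the highest of them in CPM, at 1009 ± 92.7 (SD, n = 3), over a row of 22767 bases.

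Immediate early genes, which respond within minutes to serum and stress, were mostly highest in replicate 3. FOS had an FPKM of 23, 22.5 and 41.5, FOSB 0.847, 0.919 and 3.82, EGR1 13.2, 14.1 and 21.0, JUNB 13.5, 13.1 and 20.4 and NR4A1 6.12, 5.93 and 8.45. Each of these varied between the libraries beyond counting error, and in each replicate 3 had the highest value. IER2 also varied, at 9.67, 7.05 and 10.6, but there replicate 2 was low and replicates 1 and 3 were close. JUN differed, with 21.5, 18.9 and 18.5, highest in replicate 1, and ATF3 did not pass the test. The same library was highest for most of the called chemokines, and whether the patterns are linked was not tested.

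The antigen-presenting genes gave uneven rows. B2M, the light chain of MHC class I, had an FPKM of 45.4, 45.0 and 45.4, while the heavy chain gene HLA-B had 0 counts and HLA-C 0, 1 and 1. Both heavy chain genes lie in the MHC region where most protein-coding rows hold 0 counts.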
